A study of Mus musculus with 8 samples.

Results

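The RNA of 40 genes of mitosis was followed in blood stem and progenitor cells of diabetic and control mice. They were chosen by symbol, as genes known to act in mitosis, and all 40 of 40 were found among the 13708 genes counted. The cells were LSK cells of the bone marrow, which lack lineage markers and carry Sca-1 and c-Kit on their surface, and which were isolated by flow cytometry. The 4 db/db libraries came from mice homozygous for the Lepr db allele (B6.BKS(D)-Leprdb/J), and the 4 db/m libraries from heterozygous mice (B6.BKS(D)-Leprdb/+), which carry the allele as well. Both groups were taken 6 months after the onset of diabetes, as labelled, and no drug or diet was named. Lepr encodes the leptin receptor, and the db allele is inherited in all cells of the animal, so that the marrow cells and the metabolism of the whole mouse carry the difference together. The titles of all 8 libraries say db/m, and the groups follow the genotype label. Nothing in the labels says whether a library came from 1 mouse or a pool, or whether replicates were separate mice, so p-values measure the spread between these libraries only.

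Mitosis separates the copied chromosomes into 2 daughter cells. Cyclin B with the kinase Cdk1 drives entry, condensed chromosomes attach through kinetochores to the spindle, and the checkpoint holds the anaphase-promoting complex until every kinetochore is attached. That complex then marks cyclin B and securin for destruction, the sister chromatids part, and the central spindle directs the ring that cleaves the cell. Most of these genes are transcribed late in the cell cycle and kept low in resting cells. Blood stem cells in the marrow are mostly at rest, while the multipotent progenitors of the LSK gate divide more often. The RNA of these genes in LSK cells can therefore rise with the share of cells in cycle, which was not measured here. In bulk RNA, fewer cells in mitosis and less mitotic RNA per cell cannot be told apart.

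Between 27640853 and 42806327 reads were assigned to genes in db/db libraries, and between 27801581 and 35557731 in db/m libraries, which left no mitosis gene with fewer than 415 reads in a library. The share of intergenic reads was 8.18 ± 3.15% in db/db libraries and 22.1 ± 6.74% in db/m libraries (SD, n = 4 each; exact two-sided permutation p = 0.0286, the smallest p that 4 against 4 libraries can give; adjusted p = 0.114 over 4 measures). The pan-leukocyte gene Ptprc averaged 363 ± 57.9 CPM (counts per gene after scaling the libraries to equal size) in db/db libraries and 374 ± 27.7 CPM in db/m libraries, and the gate's own Kit averaged 812 ± 216 CPM in db/db libraries and 658 ± 101 CPM in db/m libraries (SD, n = 4 each). Ly6a, which encodes Sca-1, had 131 ± 36.1 CPM in db/db libraries and 466 ± 115 CPM in db/m libraries (adjusted p = 0.0445 over all genes, edgeR's quasi-likelihood test with Benjamini-Hochberg adjustment), so that a gene of the sort itself differed between the groups. Lepr had between 0.412 and 2.66 CPM in db/db libraries and at most 1.27 CPM in db/m libraries, and since db is a mutation in the gene its count does not check the genotype.

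No mitosis gene passed the test between db/db and db/m LSK cells. With edgeR's quasi-likelihood test and Benjamini-Hochberg adjustment over all 13708 genes, 0 of 40 had an adjusted p of at most 0.05, where 5 of all genes (0.0365%) did, 3 of them lower in db/db (0.0219%). At an unadjusted p under 0.05 the test kept 1 of 40 (2.5%), Top2a, which was lower in db/db, against 15.3% of all genes in either direction and 7.54% lower. DESeq2 called 0 of the 40 and 5.52% of all genes, and limma-voom called 0 of the 40 and 0% of all genes, or 1.4% with quality weights, again with 0 of the 40. The authors' deposited table gave 0 of the 40 a false discovery rate under 0.05, with a lowest value of 0.316 for Top2a, while 4.28% of all genes passed there.

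The direction of the small differences rested on db/m replicate 3. With all 8 libraries the log2 fold change of db/db over db/m was negative for 37 of 40 mitosis genes, against 48.6% of all genes, with a median of -0.15 for the mitosis genes and 0.01 for all genes. Without db/m replicate 3, 16 of 40 were negative and the median was 0.045, so the counts of negative values in each role hold for the 8 libraries together. It ranged from -0.42 for Top2a to 0.10 for Pttg1, and the 3 positive values belonged to Ccna2, Kif4 and Pttg1. The 40 genes move together from library to library, as described further on, so their signs are not 40 separate observations. No member had db/db and db/m libraries that did not overlap, while 9.03% of all genes did. For 34 of 40 genes the 95% interval of the log2 fold change lay within 2-fold either way, and 39 of 40 intervals included 0. The lowest bound was -1.16 for Plk1 and the highest 0.83 for Ccnb1.

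**Figure D1:**
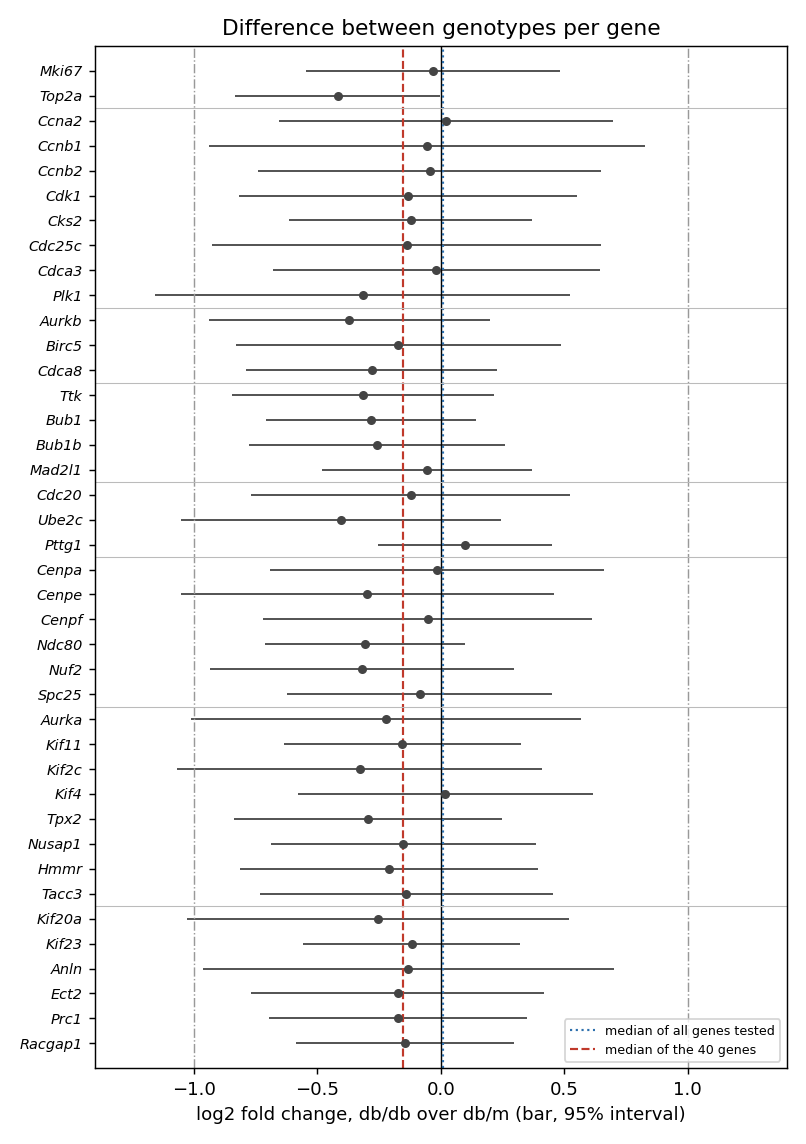
Log2 fold change of db/db over db/m for each of the 40 mitosis genes (horizontal axis), grouped by role down the vertical axis; points are estimates of edgeR's quasi-likelihood fit and bars are 95% intervals. Estimates run from -0.42 for Top2a to 0.10 for Pttg1, 37 of them lie below 0, and 39 of 40 intervals cross 0.

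Among the genes of the mitotic chromosome, Mki67 encodes the Ki-67 protein that coats it and is the usual mark of dividing cells (chromosome 7, 135689788 to 135716379, minus strand; mm10 as for all positions). Mki67 had 146, 151, 249 and 169 CPM in db/db replicates 1 to 4, against 164, 123, 244 and 198 CPM in db/m replicates 1 to 4. Replicate 3 was highest in either genotype and the groups overlapped over nearly their whole range. Its log2 fold change was -0.03 ± 0.23 (SE), with a 95% interval from -0.55 to 0.48 (adjusted p = 0.971, edgeR's quasi-likelihood test). Top2a encodes topoisomerase II alpha, which untangles sister DNA (chromosome 11, 98992947 to 99024189, minus strand). Its level was 299.8, 339, 353 and 312 CPM in db/db libraries, against 328, 339.7, 579 and 495 CPM in db/m libraries. Db/m replicates 3 and 4 stood above all db/db libraries, and db/m replicates 1 and 2 lay among them. Top2a averaged 326 ± 24.5 CPM in db/db libraries and 436 ± 122 CPM in db/m libraries, and its log2 fold change of -0.42 ± 0.19 (adjusted p = 0.325, edgeR's quasi-likelihood test) did not pass.

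The 8 genes of the Cdk1 engine had a median log2 fold change of -0.09, with 7 of 8 negative and none past the test. Cdk1, the kinase of mitotic entry (chromosome 10, 69336635 to 69352912, minus strand), had 81.6, 78.6, 119 and 80.5 CPM in db/db libraries, against 64.5, 55.9, 156 and 117 CPM in db/m libraries. The lowest and the highest values were both in db/m, and db/db replicate 3 stood apart from 3 db/db libraries that were nearly level. Its log2 fold change was -0.13 ± 0.31, with a 95% interval from -0.82 to 0.55 (adjusted p = 0.880, edgeR's quasi-likelihood test). Ccnb1, the cyclin B1 that activates Cdk1 (chromosome 13, 100778739 to 100786486, minus strand), showed the same shape on a larger scale. Ccnb1 had 157, 141, 305 and 160.4 CPM in db/db libraries, against 127, 92.5, 345 and 229.9 CPM in db/m libraries, and a log2 fold change of -0.06 ± 0.40 (adjusted p = 0.968, edgeR's quasi-likelihood test). The range from the lowest to the highest library was 3.73-fold, within db/m alone.

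Plk1, the Polo-like kinase that acts from entry to cytokinesis (chromosome 7, 122159437 to 122169875, plus strand), had 88.4, 65.3, 118 and 77.98 CPM in db/db libraries, against 59.0, 54.5, 188 and 133.5 CPM in db/m libraries. Its db/m values lay on both sides of the db/db values, and its log2 fold change of -0.32 ± 0.38 (adjusted p = 0.744, edgeR's quasi-likelihood test) had the lowest interval bound of the 40. Cks2, a small partner of Cdk1 (chromosome 13, 51645232 to 51650662, plus strand), had its highest level in another library. Cks2 had 63.9, 67.3, 114 and 74.2 CPM in db/db libraries, against 70.6, 77.6, 79.8 and 119.7 CPM in db/m libraries. Db/m replicate 4, not 3, was the highest library for Cks2, as for 5 of the 40 genes in all. The log2 fold change of Cks2 was -0.12 ± 0.22 (adjusted p = 0.840, edgeR's quasi-likelihood test). Cyclin A2, which bridges DNA synthesis and entry, averaged 186 ± 53.1 CPM (Ccna2) in db/db libraries and 184 ± 80.1 CPM in db/m libraries. Cyclin B2 (Ccnb2) averaged 144 ± 47.4 CPM in db/db libraries and 149 ± 61.8 CPM in db/m libraries. The phosphatase Cdc25c, which frees Cdk1 from inhibition, and Cdca3, a factor of the destruction of Wee1, had log2 fold changes of -0.14 and -0.02.

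All 3 members from the chromosomal passenger complex, which corrects faulty attachments, had negative values, with a median log2 fold change of -0.28. Aurkb, its kinase Aurora B (chromosome 11, 69045643 to 69051662, plus strand), had 123, 122, 183 and 134 CPM in db/db libraries, against 132, 119, 266 and 209 CPM in db/m libraries. Db/m replicates 3 and 4 were above all db/db libraries, and db/m replicate 2 was below them all. The log2 fold change of Aurkb was -0.37 ± 0.26 (adjusted p = 0.532, edgeR's quasi-likelihood test). Its partners Birc5 (survivin) and Cdca8 (borealin) had -0.17 and -0.28.

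The spindle checkpoint genes had a median log2 fold change of -0.27 over 4 members. Bub1, a kinase of the unattached kinetochore (chromosome 2, 127800200 to 127831859, minus strand), had 54.1, 50.6, 71.5 and 64.2 CPM in db/db libraries, against 49.99, 68.5, 90.0 and 84.0 CPM in db/m libraries. Only db/m replicate 1 lay below the db/db range, and the log2 fold change was -0.28 ± 0.19 (adjusted p = 0.520, edgeR's quasi-likelihood test). Ttk, the checkpoint kinase Mps1 (chromosome 9, 83834689 to 83872390, plus strand), had 37.7, 33.0, 43.5 and 37.1 CPM in db/db libraries, against 30.7, 34.1, 63.1 and 60.2 CPM in db/m libraries. Its db/db libraries kept close together (37.9 ± 4.30 CPM), its db/m libraries spread widely (47.1 ± 17.0 CPM; SD, n = 4 each), and the log2 fold change was -0.31 ± 0.24 (adjusted p = 0.577, edgeR's quasi-likelihood test). Bub1b, which encodes BubR1, averaged 177 ± 21.2 CPM in db/db libraries and 212 ± 77.8 CPM in db/m libraries. Mad2l1, the Mad2 inhibitor of the anaphase-promoting complex, averaged 92.5 ± 14.0 CPM in db/db libraries and 96.1 ± 25.7 CPM in db/m libraries.

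Of the 3 anaphase genes, Cdc20 activates the anaphase-promoting complex and Ube2c supplies it with ubiquitin. Cdc20 (chromosome 4, 118432901 to 118437343, minus strand) had 176, 153, 272 and 171 CPM in db/db libraries, against 139, 135, 304 and 261 CPM in db/m libraries. Its genotype means lay close (193 ± 53.6 CPM in db/db and 210.0 ± 85.9 CPM in db/m libraries; SD, n = 4 each), with a log2 fold change of -0.12 ± 0.29 (adjusted p = 0.884, edgeR's quasi-likelihood test). Ube2c (chromosome 2, 164769929 to 164772902, plus strand) had 95.1, 78.9, 135 and 99.4 CPM in db/db libraries, against 84.0, 88.0, 203 and 165 CPM in db/m libraries. Again db/m replicates 3 and 4 were above every db/db library while the other db/m libraries were not, and the log2 fold change was -0.40 ± 0.29 (adjusted p = 0.552, edgeR's quasi-likelihood test). Pttg1, the securin that keeps separase shut, was the flattest of the 40 across libraries. Pttg1 had 23.8, 27.2, 25.1 and 33.7 CPM in db/db libraries, against 26.5, 22.1, 24.1 and 29.9 CPM in db/m libraries, a 1.52-fold range, and a log2 fold change of 0.10 ± 0.16 (adjusted p = 0.816, edgeR's quasi-likelihood test).

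The kinetochore genes were negative in 6 of 6, with a median log2 fold change of -0.19. Ndc80 and Nuf2 are partners in the complex that grips the microtubule. Ndc80 (chromosome 17, 71496100 to 71526857, minus strand) had 42.9, 53.9, 62.9 and 48.5 CPM in db/db libraries, against 53.1, 50.2, 77.5 and 76.6 CPM in db/m libraries. Nuf2 (chromosome 1, 169497934 to 169531464, minus strand) had 45.2, 42.0, 62.8 and 48.5 CPM in db/db libraries, against 40.5, 38.9, 86.4 and 81.7 CPM in db/m libraries. In both genes db/m replicates 3 and 4 were near each other and above all db/db libraries. The log2 fold changes were -0.31 ± 0.18 for Ndc80 (adjusted p = 0.460) and -0.32 ± 0.28 for Nuf2 (adjusted p = 0.631, edgeR's quasi-likelihood test). Spc25, of the same complex, averaged 55.3 ± 4.85 CPM in db/db libraries and 58.7 ± 22.2 CPM in db/m libraries. The centromeric histone Cenpa and the large protein Cenpf of the outer kinetochore had log2 fold changes of -0.02 and -0.05, and the kinetochore motor Cenpe had -0.30.

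Spindle genes were negative in 7 of 8, with a median log2 fold change of -0.18. Tpx2, which activates Aurora A on the spindle (chromosome 2, 152847964 to 152895321, plus strand), had 115, 117, 175 and 127 CPM in db/db libraries, against 109, 119.9, 217 and 208 CPM in db/m libraries. Kif2c, a kinesin that takes microtubules apart (chromosome 4, 117159633 to 117182624, minus strand), had 60.3, 58.7, 70.3 and 52.3 CPM in db/db libraries, against 49.7, 35.5, 122 and 96.5 CPM in db/m libraries. For Kif2c the db/db libraries all lay inside the gap between the lower and the upper pair of db/m libraries, whereas for Tpx2 db/db replicate 3 reached toward the upper pair. Their log2 fold changes were -0.30 ± 0.24 for Tpx2 (adjusted p = 0.614) and -0.33 ± 0.33 for Kif2c (adjusted p = 0.687, edgeR's quasi-likelihood test). Aurka, which encodes Aurora A, averaged 70.6 ± 16.9 CPM in db/db libraries and 82.3 ± 44.8 CPM in db/m libraries, and the motor Kif11 (Eg5), which pushes the spindle poles apart, 176 ± 25.7 CPM in db/db libraries and 196 ± 63.7 CPM in db/m libraries. The microtubule-binding Nusap1, Hmmr and Tacc3 had log2 fold changes of -0.15, -0.21 and -0.14, and the chromosome-bound motor Kif4 0.02.

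Cytokinesis genes, 6 of 6 negative, had a median log2 fold change of -0.16. Prc1 bundles the microtubules of the central spindle (chromosome 7, 80294451 to 80316259, plus strand). Prc1 had 144, 149, 179.8 and 142 CPM in db/db libraries, against 130.3, 109.9, 241 and 212 CPM in db/m libraries. Racgap1 is part of the centralspindlin complex that recruits the cleavage machinery (chromosome 15, 99620496 to 99651656, minus strand), and had 157, 179.6, 223 and 175 CPM in db/db libraries, against 152, 164, 278 and 219 CPM in db/m libraries. The db/db values of Prc1 lay wholly between the db/m pairs, and those of Racgap1 nearly so. Prc1 had a log2 fold change of -0.17 ± 0.23 (adjusted p = 0.778) and Racgap1 of -0.15 ± 0.20 (adjusted p = 0.777, edgeR's quasi-likelihood test). Anln, the anillin scaffold of the cleavage ring, had the widest range of the 40 genes, with 42.9, 47.0, 49.6 and 38.9 CPM in db/db libraries against 27.2, 23.2, 90.6 and 54.2 CPM in db/m libraries, 3.90-fold from lowest to highest. The motors Kif20a and Kif23 and the exchange factor Ect2, which activates RhoA at the cleavage plane, had log2 fold changes of -0.25, -0.12 and -0.17. The exons of 5 members (Ccna2, Kif20a, Kif4, Prc1 and Tacc3) share over 10% of their length with a gene on the opposite strand, up to 32.5% for Kif20a with Cdc23, and no strand setting is known for the counting, so reads of those partners could not be told apart there.

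**Figure D2:**
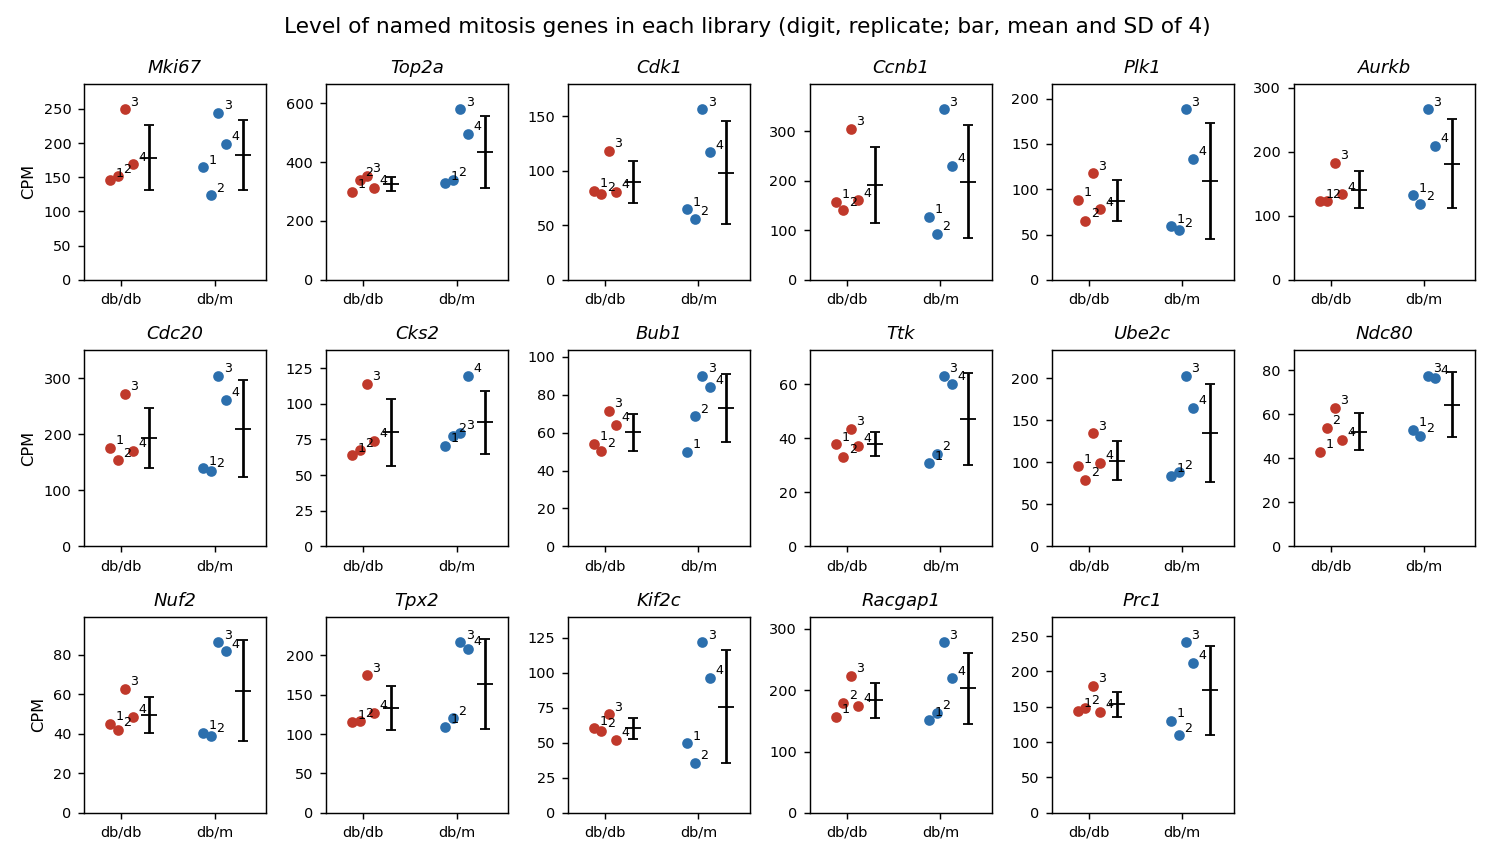
Level in CPM (vertical axes, each from 0) of named mitosis genes in 4 db/db and 4 db/m libraries; each point is 1 library, its digit the replicate, and the bar the mean with SD. For Top2a, Aurkb, Plk1 and Kif2c among others db/m replicates 3 and 4 lie above all db/db libraries, while for Mki67, Ccnb1 and Cdk1 db/db replicate 3 lies above db/m replicate 4.

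The larger differences ran between libraries of 1 genotype. Genotype accounted for a median of 2.07% of a mitosis gene's sum of squares over the 8 libraries (log2 CPM), with 35.2% for Top2a as the highest, against a median of 15.03% over all genes. Within db/m, replicates 3 and 4 were both above replicates 1 and 2 in 39 of 40 mitosis genes, an order found in 21.4% of all genes. Within db/db, replicate 3 was the highest of its group in 39 of 40, against 30.7% of all genes. Both orders held in the same 39 genes (97.5%), against 9.40% of all genes, and Pttg1 was the exception. Because the members were chosen as genes that act in the same phase, this is given as a description. No label defines these orders, which were taken from the values of these same genes. Their high shares here are therefore no separate support.

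Db/m replicate 3 was the highest of all libraries for 29 of 40 genes and db/m replicate 2 the lowest for 30 of 40, so the control group held both ends. The SD of log2 CPM had a median of 0.28 within db/db and 0.56 within db/m, and was larger within db/m for 37 of 40 genes, against 58.7% of all genes. Summed over the 40 genes, the level was 3747, 3912, 5712 and 4124 CPM in db/db replicates 1 to 4, against 3685, 3243, 6980 and 5986 CPM in db/m replicates 1 to 4. On the log2 scale, the mean of the 40 genes, each centred on its own mean, was -0.26, -0.20, 0.34 and -0.10 in db/db libraries, against -0.30, -0.52, 0.61 and 0.43 in db/m libraries. The genotype means of that level (-0.06 ± 0.27 in db/db and 0.06 ± 0.55 in db/m; SD, n = 4 each) differed by less than the SD of either group.

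**Figure D3:**
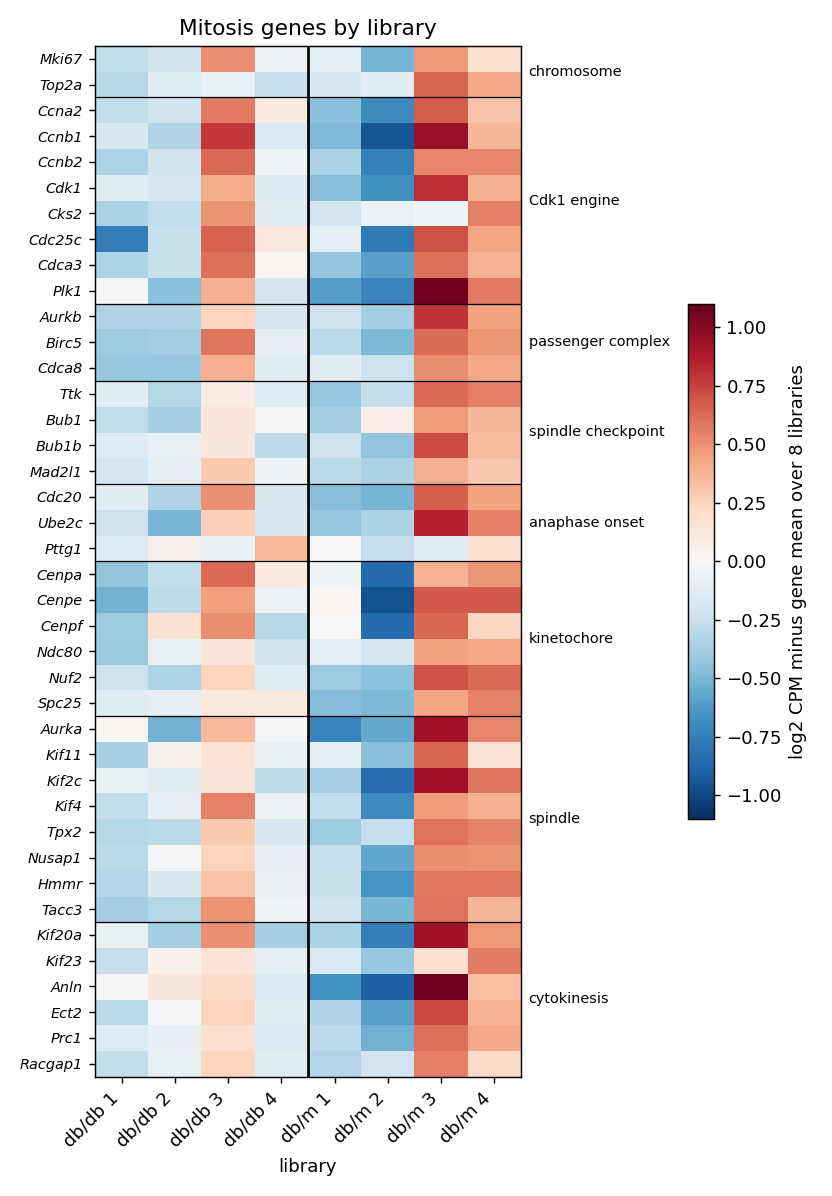
Log2 CPM of the 40 mitosis genes (rows, by role) in the 4 db/db and 4 db/m libraries (columns), each gene minus its mean over the 8 libraries, on the colour scale shown. Db/m replicates 3 and 4 and db/db replicate 3 are high across nearly all rows, db/m replicates 1 and 2 are low, and Pttg1 is the row that departs.

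Titles of the libraries carry 4 prefixes whose meaning is not given, and each occurs in 1 genotype only. Db/db replicates 3 and 4 share a prefix, and so do db/m replicates 1, 2 and 3, so the high db/m replicate 3 shares its prefix with the low replicates 1 and 2. In db/db the mitotic level of replicates 3 and 4 (0.34 and -0.10) was above that of replicates 1 and 2 (-0.26 and -0.20). Replicate 4 lay nearer to replicates 1 and 2 than to replicate 3, with 34 of 40 genes below their own mean. Whether the level is shared with a batch was not tested beyond a fit with the prefix as a correlated block. That fit called 0 of the 40 genes and 0.102% of all genes.

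Since these genes share an order across libraries, their promoters were read for the elements that are known to time mitotic genes. The cell cycle genes homology region, TTTGAA or TTCGAA, is bound by the DREAM complex that silences such genes in resting cells and by the B-Myb and FoxM1 complexes that turn them on, and CCAAT is bound by NF-Y. Promoters from 250 bases before to 50 after the start were in RefSeq's table (GRCm38.p6) for 35 of 40 members, and both strands were searched. TTTGAA or TTCGAA was present in 26 of 35 (74.3%), against 16.5% of the tested genes with a promoter there. Within 50 bases of the start it was present in 24 of 35 (68.6%), against 4.28% of tested genes. CCAAT was found in 26 of 35 (74.3%), against 42.5%, and both elements in 23 of 35 (65.7%), against 6.74%. Pttg1, the gene that did not share the order, was among the 9 without the hexamer, but so were Birc5, Ccnb1, Cenpe, Cks2, Mad2l1, Nuf2, Nusap1 and Tacc3, which did.

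Shown here are 150 bases (120 before and 30 after the start) of 5 promoters from the genes described in every library, taken in order of p among those that hold the hexamer in this stretch and whose RefSeq start lies within 100 bases of the start of the deposited gene, a condition that Kif2c did not meet. They are written 5′ to 3′ on the gene's strand, and capitals mark TTTGAA or TTCGAA on either strand, so that TTCAAA is TTTGAA read on the other strand. The hexamer sits close to the start in each of the 5, with its first base at -23 in Top2a, +15 in Bub1, -29 in Ube2c, +8 in Ttk and +6 in Racgap1, counting the first transcribed base as +1. In Top2a a further copy lies at -120. The windows are chr11:99024160-99024309 (minus strand) for Top2a, chr2:127831830-127831979 (minus) for Bub1, chr2:164769809-164769958 (plus) for Ube2c, chr9:83834569-83834718 (plus) for Ttk and chr15:99651627-99651776 (minus) for Racgap1.
Top2a: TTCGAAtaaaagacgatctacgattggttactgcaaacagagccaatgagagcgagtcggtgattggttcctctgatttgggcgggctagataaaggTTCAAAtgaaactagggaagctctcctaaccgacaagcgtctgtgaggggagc
Bub1: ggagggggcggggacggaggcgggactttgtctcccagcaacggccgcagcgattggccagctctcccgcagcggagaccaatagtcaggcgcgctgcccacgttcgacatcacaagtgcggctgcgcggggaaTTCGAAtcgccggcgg
Ube2c: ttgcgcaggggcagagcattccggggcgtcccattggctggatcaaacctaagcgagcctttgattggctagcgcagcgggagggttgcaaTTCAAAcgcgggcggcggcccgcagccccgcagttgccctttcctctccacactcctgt
Ttk: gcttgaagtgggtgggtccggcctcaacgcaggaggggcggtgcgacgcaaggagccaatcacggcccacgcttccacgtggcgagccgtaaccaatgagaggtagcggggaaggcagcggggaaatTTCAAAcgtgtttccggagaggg
Racgap1: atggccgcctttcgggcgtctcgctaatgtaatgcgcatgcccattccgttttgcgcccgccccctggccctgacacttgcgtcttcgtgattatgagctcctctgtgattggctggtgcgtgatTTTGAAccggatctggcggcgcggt
These 5 genes spanned levels from 13.6 CPM per kilobase of exon (Ttk) to 127 (Ube2c), the highest of the 40. Over all members the level per kilobase, as a mean of the 8 libraries, ran from 5.98 for Cenpf to 127 for Ube2c, with Cks2 (120.2) and Cdc20 (113) next to the top. A match of these letters is a description of the window and shows no binding.

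The factors that bind these elements did not pass the test between genotypes. Foxm1 had 68.1, 72.3, 90.0 and 65.6 CPM in db/db libraries, against 76.8, 54.4, 135 and 92.8 CPM in db/m libraries, and a log2 fold change of -0.28 (adjusted p = 0.635, edgeR's quasi-likelihood test). Mybl2, which encodes B-Myb, had 53.2, 43.0, 109.5 and 67.8 CPM in db/db libraries, against 46.6, 64.4, 89.3 and 78.7 CPM in db/m libraries, with a log2 fold change of -0.03. As in the mitosis genes, replicate 3 was the highest library of either genotype for both factors, which were added after their values were seen. Of 23 genes of mitotic transcription control, 9 (39.1%) had both library orders, against 97.5% of the 40 mitosis genes and 9.40% of all genes. A negative log2 fold change was found in 11 of the 23 (median 0.02), against 48.6% of all genes. By edgeR's quasi-likelihood test 0 passed the adjusted threshold and 1 had an unadjusted p under 0.05, against 15.3% of all genes. The dimerisation partner Tfdp2 had the smallest p of that list, at 138 ± 20.8 CPM in db/db libraries and 101 ± 20.4 CPM in db/m libraries (log2 fold change 0.46, adjusted p = 0.218, edgeR's quasi-likelihood test).

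Other genes of division gave the same order across libraries in smaller shares. Over 7 further lists with 213 genes, edgeR's quasi-likelihood test called 0 and left 8 at an unadjusted p under 0.05, against 15.3% of all genes. Limma-voom called 0, and DESeq2, the likelihood ratio test and limma-voom with quality weights each called 1, the G1 kinase Cdk6. Of all genes these 3 called 5.52%, 4.28% and 1.4%. A negative log2 fold change was found in 48.6% of all genes, beside which the counts below are given. Of 40 further kinetochore genes, 24 were negative (median log2 fold change -0.04) and 0 had an unadjusted p under 0.05 by edgeR's quasi-likelihood test, with Zw10, Cdca2 and Mad1l1 (-0.22, -0.37 and -0.22 on the log2 scale) nearest to it. Of 49 further spindle and cytokinesis genes, 38 were negative (median -0.09), and Espl1, the separase that cuts cohesin, had the smallest p, at 76.6 ± 16.5 CPM in db/db libraries and 109 ± 35.6 CPM in db/m libraries (log2 fold change -0.51 ± 0.22, adjusted p = 0.318, edgeR's quasi-likelihood test). The centriole gene Stil and the abscission gene Cep55 had -0.36 each. Condensin and cohesin genes leaned the other way, with 6 of 18 negative and a median of 0.06, led by the cohesin loader genes Nipbl (0.22) and Mau2 (0.17) and by the cohesin subunit gene Stag2 (0.20). Kinetochore, spindle, condensin and anaphase-promoting genes together numbered 124, of which 82 (66.1%) had both library orders, against 97.5% of the 40 mitosis genes and 9.40% of all genes.

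The list of the anaphase-promoting complex, which also holds genes that act on or with it, had 12 of 17 genes negative (median log2 fold change -0.07), against 48.6% of all genes. At an unadjusted p under 0.05 by edgeR's quasi-likelihood test were 2 of 17 (11.8%, against 15.3% of all genes). Fbxo5, which encodes the inhibitor Emi1, averaged 40.6 ± 2.46 CPM in db/db libraries and 56.6 ± 12.9 CPM in db/m libraries (log2 fold change -0.48 ± 0.16, adjusted p = 0.209, edgeR's quasi-likelihood test). Cdc16, a scaffold subunit, averaged 126 ± 5.74 CPM in db/db libraries and 151 ± 7.39 CPM in db/m libraries without overlap of the groups (log2 fold change -0.26 ± 0.09, adjusted p = 0.212, edgeR's quasi-likelihood test). Both missed the adjusted threshold, and Ube2s, which extends ubiquitin chains with this complex, had -0.31.

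DNA replication genes, active in the phase before mitosis, had 43 of 55 negative, against 48.6% of all genes, and a median log2 fold change of -0.07. The smallest p values there belonged to Chaf1b (0.33), a histone chaperone subunit, and the polymerase subunits Pold1 (-0.28) and Pola1 (-0.22), none past the adjusted threshold. Their mean centred level was -0.18, -0.21, 0.38 and -0.10 in db/db libraries, against -0.24, -0.07, 0.35 and 0.07 in db/m libraries. Db/db replicate 3 was again the highest of its group, in 52 of 55 genes, while db/m replicates 3 and 4 were both above 1 and 2 in 35 of 55. Genes that hold cells in or release them from G1 spread furthest. Of these 11 genes 8 were negative, against 48.6% of all genes, with a median log2 fold change of -0.23. At an unadjusted p under 0.05 by edgeR's quasi-likelihood test were 3 of 11 (27.3%), against 15.3% of all genes. Cdk6, the G1 kinase that lets progenitors enter the cycle, had 63.9, 59.7, 78.998 and 64.8 CPM in db/db libraries, against 102, 86.2, 136 and 102 CPM in db/m libraries. Its groups did not overlap, and its log2 fold change of -0.67 ± 0.15 had an adjusted p of 0.0970 in edgeR's quasi-likelihood test, while DESeq2, the likelihood ratio test and limma-voom with quality weights called it. Cdkn1c, the p57 inhibitor of resting stem cells, had 29.8, 35.4, 25.4 and 28.3 CPM in db/db libraries, against 24.5, 20.9, 8.09 and 15.3 CPM in db/m libraries (log2 fold change 0.79 ± 0.30, adjusted p = 0.246, edgeR's quasi-likelihood test). The groups of Cdkn1c did not overlap either, as was the case for 9.03% of all genes. Cdkn2c, the p18 inhibitor of Cdk6, had a log2 fold change of -0.59 (adjusted p = 0.220, edgeR's quasi-likelihood test). Of these G1 genes, db/m replicate 3, the library with most mitotic RNA, had the highest Cdk6 and the lowest Cdkn1c of its group. The inhibitor gene Cdkn2c ran opposite to Cdkn1c there. It was higher in db/m replicates 3 and 4 (35.5 and 36.6 CPM) than in replicate 1 (23.8 CPM) or replicate 2. Of the 11 G1 genes, 4 had db/m replicates 3 and 4 both above 1 and 2, and 3 had both below, so the list shared no single order.

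Markers of the cells in the gate, and of cells outside it, also varied between these libraries. The 18 stem cell markers, all in the table and none at 0, had a mean centred level of 0.44, 0.51, -0.24 and 0.19 in db/db libraries, against 0.12, -0.04, -0.68 and -0.30 in db/m libraries. Their summed level ran from 2439 to 4021 CPM in db/db libraries and from 2002 to 3273 CPM in db/m libraries. Within each genotype the lowest stem cell level was in replicate 3, where the mitotic level was highest. The 19 granulocyte-monocyte progenitor markers were at -0.12, -0.76, -0.37 and -0.05 in db/db libraries, against -0.40, 0.24, 0.56 and 0.91 in db/m libraries, with sums of 3344 to 7053 CPM in db/db and 4757 to 15941 CPM in db/m libraries. By the mean centred level they were higher in db/m replicates 3 and 4 than in 1 and 2, as the mitosis genes were. In db/db that level was not highest in replicate 3. By the sum, db/db replicate 3 was the highest of its group (7053 CPM), and db/m replicate 3 (9999 CPM) lay below replicate 2 (10151 CPM). Singly, 11 of the 19 markers had db/m replicates 3 and 4 both above 1 and 2.

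Erythroid markers (19 of 20 in the table) were at 0.15, -0.68, 2.28 and 1.09 in db/db libraries, against -0.45, -1.39, -0.35 and -0.65 in db/m libraries, with sums of 2042 to 6082 CPM in db/db and 1028 to 1406 CPM in db/m libraries. The highest value was in db/db replicate 3, which also had the highest mitotic level of its group. In that library the 12 macrophage markers were far below the other libraries, with a summed level of 229.7 CPM, against sums of up to 4810 CPM in the other db/db libraries and 894 to 1501 CPM in db/m libraries. Megakaryocyte markers were at 0.51, 0.22, 0.32 and 1.22 in db/db libraries, against 0.05, -0.47, -0.82 and -1.02 in db/m libraries, lowest where the mitotic level of db/m was high. Plasma cell markers (16 of 16) were at -1.30, -1.59, -0.61 and -0.02 in db/db libraries, against 1.26, 1.38, 0.01 and 0.88 in db/m libraries, with sums of 1984 to 7533 CPM in db/db and 6018 to 21098 CPM in db/m libraries. Such cells lie outside the LSK gate, and within db/m their markers were lowest in replicate 3. No marker of these 6 lists was at 0 in any library. Of the other cell type lists, the T and NK cell list had Cd8a and Gzma at 0 in db/db replicate 3. There the mean centred T and NK cell (-1.83), B cell (-1.89) and lymphoid (-0.52) levels were each the lowest of the 8 libraries. The mast cell and basophil level (0.41) was not. The part of these markers in the mitotic level was not tested beyond fits with the erythroid or the plasma cell level as a covariate. These fits called 0 of the 40 genes, against 0% and 0.0219% of all genes. At an unadjusted p under 0.05 were 8 and 4 of the 40, against 15.1% and 9.43% of all genes in the same fits. The median log2 fold change of the 40 moved to -0.54 and -0.57. Both covariates differed between the genotypes themselves. The mean erythroid level was 0.71 in db/db and -0.71 in db/m libraries, and the mean plasma cell level -0.88 and 0.88. These fits therefore cannot fully separate genotype from covariate.

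**Figure D4:**
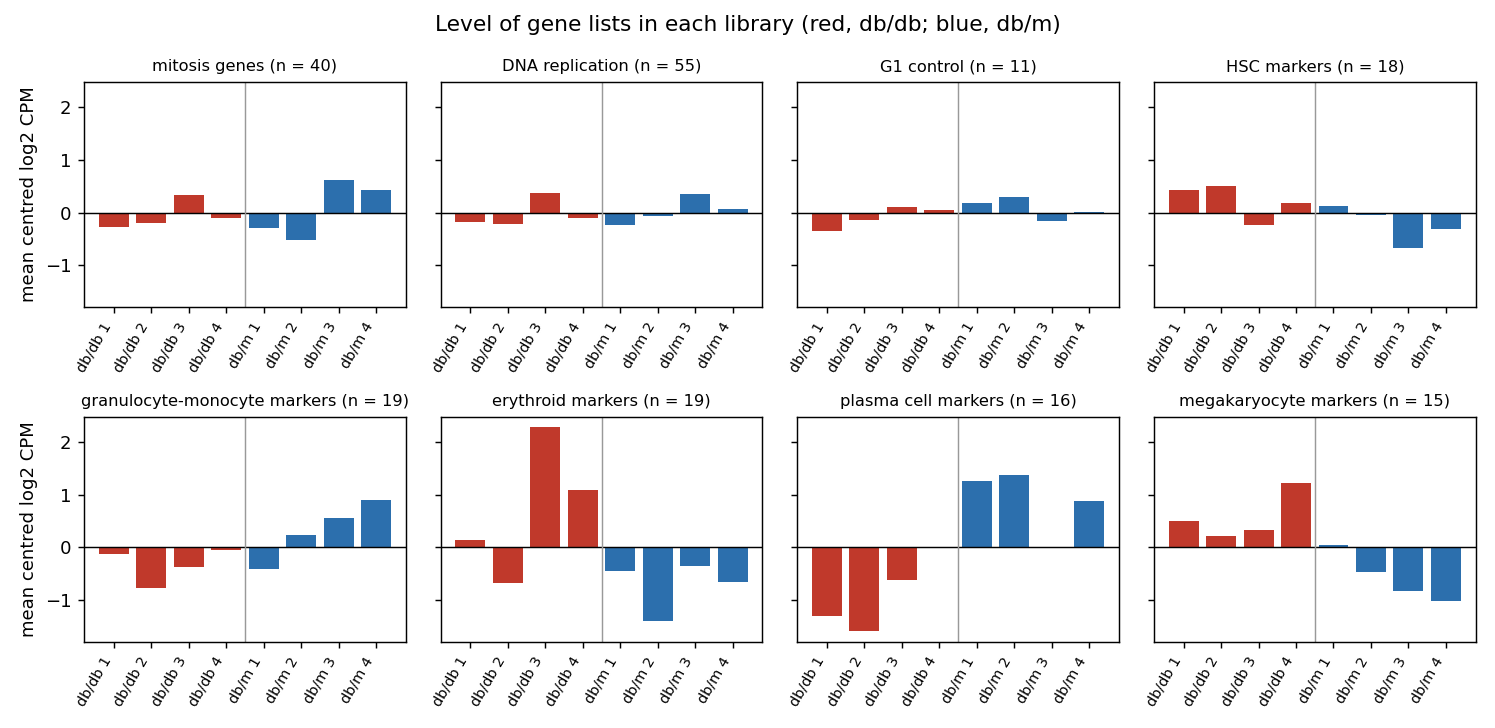
Mean centred log2 CPM (vertical axis) of the 40 mitosis genes and of 7 other gene lists in the 4 db/db (red, left) and 4 db/m (blue, right) libraries. The mitotic level is high in db/db replicate 3 and db/m replicates 3 and 4, where the stem cell level is the lowest of its genotype in each replicate 3, and the erythroid level peaks at 2.28 in db/db replicate 3.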

How the data were processed

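RNA-seq of polyadenylated RNA from LSK cells was deposited by the authors as raw counts per gene. The genome build mm10 and the tools FastQC 0.11.5, STAR 2.7.10a (an aligner), featureCounts and Subread 2.0.3 (read counting) and edgeR 3.40.2 are named in the submitters' processing notes; neither annotation nor strand setting is named (not given in the sources used here). The deposited table also gives the authors' log2 fold changes and p-values, which equal an edgeR likelihood ratio test of the same counts to within 2.82e-09 in p. A deposited project sheet gives RNA integrity as a score per library, and its other values (sample names) were used only to tie libraries to labels. Deposited read summaries give mapped and intergenic reads as counts and percent. The smallest row total is 79, so genes with fewer reads are not in the table, and 21 symbols read as dates.

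Here the 13708 genes were fitted with edgeR 4.0.16 (R 4.3.3; TMM scaling, quasi-likelihood test, genotype as the only term, filterByExpr, which removed none), with p-values adjusted over all genes by Benjamini-Hochberg at 0.05. The biological coefficient of variation was 31.3%. The code was tested on simulated data. CPM are counts scaled to TMM-adjusted totals, centred levels use a prior count of 2, and levels per length divide by the deposited exon length. Libraries of a group differed by more than counting noise (chi-square of at least 47.9 per gene in every pair). Alternatives were limma 3.58.1, DESeq2 1.42.0, other scalings and filters, covariates, and leaving out each library. Within groups replicates are numbered in order of deposit. Members and lists were chosen with earlier results of these data known. Values in every library are given for 7 leading genes and, in each of 8 roles, for the member of smallest p (2 members where the role holds 4 or more), and of every other pathway list the 3 genes of smallest p are named; Pttg1, Anln, Foxm1 and Mybl2 were added after their values were seen. For cell type lists only levels are used.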

Additional observations from a re-analysis of the deposited data

Results flagged for a closer look

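In 2 of 80 sets of 4 libraries (40 genes in each genotype), 1 library lay far from the other 3 by Dixon's test at the 95% level, where chance marks about 1 set in 20. Both were db/db replicate 3 on the high side. For Ccnb1 the gap took 0.884 of the range of the db/db libraries, with 305 CPM in replicate 3, 160.4 CPM in the nearest and 141 CPM in the lowest library. For Cdk1 it took 0.924, with 119 CPM in replicate 3, 81.6 CPM in the nearest and 78.6 CPM in the lowest library. Without db/db replicate 3 the log2 fold change was -0.38 for Ccnb1, and 0 of the 40 genes were called, where 0 of all genes were.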

How the results depend on the processing

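In all 20 of 20 alternatives 0 mitosis genes were called, and of 340 alternative values for 17 named genes 318 kept their sign and 22 reversed, with a lowest adjusted p of 0.106. The alternative without a filter is the same fit as the main one, since filterByExpr removed no gene, so its values could not differ. The count over all genes was 5 with edgeR's quasi-likelihood test, 0 with upper-quartile scaling, 757 with DESeq2, 587 with the likelihood ratio test, 0 with limma-voom, 192 with its quality weights, 14 with the title prefix as a correlated block, 3 with the plasma cell covariate, 0 with the erythroid covariate, and 0 to 90 when 1 library was left out; the cause was not tested. Leaving out 1 library moved the number of negative members between 16 (without db/m replicate 3) and 39, and the median log2 fold change between -0.34 (without db/db replicate 3) and 0.045 (without db/m replicate 3). Against db/m replicate 3 alone, the library highest for 29 of 40 genes, the median was -0.64; the spread there comes from the db/db libraries, and the lone library is assumed to vary like them. Of the 17 named genes 8 changed sign when 1 library was left out: Cdk1, Plk1, Racgap1 and Prc1 without db/m replicate 3, Cdc20 without db/m replicate 3 or 4, Cks2 without db/m replicate 4, Mki67 without either of db/m replicates 3 and 4 or without either of db/db replicates 1 and 2, and Ccnb1 without those 4 or db/db replicate 4. The ranges over left-out libraries were -0.23 to 0.13 for Mki67, -0.33 to 0.17 for Cdk1, -0.38 to 0.34 for Ccnb1, -0.54 to 0.073 for Plk1, -0.33 to 0.10 for Cdc20, -0.34 to 0.072 for Cks2, -0.26 to 0.033 for Racgap1 and -0.34 to 0.017 for Prc1. Ccnb1 also reversed with limma-voom (0.050), its quality weights (0.082) and the prefix block (0.058), Cdk1 with quality weights (0.016), and Cks2 against db/m replicate 3 alone (0.0055) and with plasma cell level in the fit (0.078). No paired analysis was possible because replicate numbers follow the order of deposit and each title prefix occurs in 1 genotype. The median SE of the mitosis genes' log2 fold changes was 0.27, with at least 415 reads per gene and library.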
